A study of Rattus norvegicus with 4 samples.

Results

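Phase II enzymes attach a polar group to drugs, steroids, bile acids and other compounds, which makes them more soluble and ready for export. The genes described here were all genes of the array whose only gene symbol in the platform annotation began with Ugt1, Ugt2, Sult, Gsta, Gstm, Gstp, Gstt, Gstk, Gsto, Gstz, Mgst, Nat1, Nat2 or Tpmt, which gave 40 of the 14506 genes measured. They comprised 11 sulfotransferases (SULT), 7 UDP-glucuronosyltransferases of family 2 (UGT2), 17 soluble glutathione transferases (GST), 2 microsomal glutathione transferases (Mgst1 and Mgst2), the thiopurine methyltransferase Tpmt, and Nat10 and Nat14. Nat10, an RNA acetyltransferase, and Nat14 came in through the first letters of their symbols and are not arylamine N-acetyltransferases, so 38 of the 40 are conjugating enzymes by name. No gene of the Ugt1 locus and no Gstz gene had a probe set of its own symbol.

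Livers came from untreated male rats of the WNIN/Ob strain, aged 4 months and fed stock diet, with an obese and a lean phenotype. RNA of 4 obese animals was combined into an obese pool and RNA of 4 lean animals into a lean pool, and each pool was hybridised to 2 Affymetrix Rat Gene ST arrays, called the original and the technical replicate array. Each phenotype was thus 1 sample, all 4 arrays were used, and no test across animals was possible. Levels are log2 intensities, averaged over the 2 arrays of a pool. A difference is the obese minus the lean level. The range beside a fold spans the 4 possible pairs of an obese with a lean array, and it covers measurement error only. In these bulk samples, fewer cells of a type cannot be told apart from less RNA per cell.

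SULT enzymes transfer sulfonate from the donor PAPS, UGT enzymes transfer glucuronic acid from UDP-glucuronate, and GST enzymes join electrophiles to glutathione. Liver is the main site of all of these reactions. In rats the sulfotransferases are partly sex-dependent: Sult1c3, known as ST1C1, is more abundant in male liver, and the hydroxysteroid sulfotransferases of the Sult2a group are more abundant in female liver. Many GST genes are induced by electrophiles through the transcription factor Nrf2, and several UGT, SULT and GST genes respond to the drug-sensing receptors CAR and PXR.

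Most hepatocyte markers were close between the pools, with a slightly higher sum in the obese pool. The summed levels of muscle, blood, stellate cell and macrophage markers were lower in the obese pool, though not every blood or stellate marker was. The summed intensity of 20 hepatocyte markers was 142015 to 143030 on the obese arrays and 132379 to 137448 on the lean arrays. Albumin (Alb) stood at 13.74 in the obese and 13.67 in the lean pool. Differences under 1.2-fold were seen for 18 of the 20. The arrays did not overlap for 10 that were higher in the obese pool, against 27.5% of all genes, and for 3 that were lower, against 18.5%. The largest difference was that of Apoa1, 1.33-fold higher (1.30 to 1.36). The summed intensity of 26 muscle markers was 755 to 778 on the obese arrays and 41388 to 43052 on the lean arrays, and all 26 were at least 1.5-fold lower in the obese pool. The summed intensity of 8 blood cell markers was 4501 to 4674 on the obese and 8618 to 9375 on the lean arrays. The 3 of the 8 counted as lower were Hbb, Hbb-b1 and Alas2, while Ppbp and S100a9 differed by 0.00 and 0.01. For 14 markers of stellate cells and fibroblasts the sums were 1577 to 1682 on the obese and 2763 to 2862 on the lean arrays. The 4 of the 14 counted as lower included Des, which is also on the muscle list. Reln, Acta2, Hand2, Pdgfrb and Timp1 differed by -0.03 to 0.16, and 11 of the 14 differences were below 0 and 3 above. For 13 macrophage markers they were 4170 to 4802 on the obese and 5228 to 5551 on the lean arrays, with all 13 differences below 0 and none past the 1.5-fold rule defined below. No marker of these lists was at 0 on any array. The part of these other cells in the differences below was not tested.

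Among genes bright enough to be counted, Gsta3, Sult4a1 and Sult2a2 were higher in the obese pool and Sult1c3 and Sult1c2 lower. The dim mu-class gene Gstm5 had a difference of similar size, -1.14, and was not counted. A gene was counted at a fold of 1.5 or more, a gap of 0.25 or more between the closest arrays of different pools, and a level in the higher pool no lower than the median over all genes (5.48, the level filter). By this rule 3 of the 40 genes (7.50%) were higher in the obese pool, against 2.19% of all 14506 genes. Lower were 2 of the 40 (5%), against 2.43% of all genes. Genes below the level filter could not be counted. The filter was reached by 72.5% of the 40 genes and 52.1% of all genes, so these shares have unlike bases. With cyclic loess between the arrays the split over all genes was 227 higher and 400 lower, in place of 317 higher and 352 lower, and the same 5 conjugation genes were counted. With a fold of 2 and a gap of 0.5, Gsta3 and Sult4a1 were higher, against 0.572% of all genes, and Sult1c3 lower, against 1.48%. Without the obese technical replicate array 0 of the 40 genes were 2-fold lower. There were 2, Sult1c3 and Sult1c2, without the obese original or the lean original array, and 2, Sult1c3 and Gstm5, without the lean technical replicate array.

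The median difference of the 40 genes was 0.06, beside 0.03 over all genes, with 23 above 0 and 17 below. The arrays of the pools did not overlap for 16 genes that were higher in the obese pool, against 27.5% of all genes, and for 12 that were lower, against 18.5%. Differences under 1.2-fold were seen for 21 of the 40 genes (52.5%), beside 74.8% of all genes. The higher pool reached the median level for 29 of the 40 genes, against 52.1% of all genes, and the other 11 were dim in both pools.

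**Figure D1:**
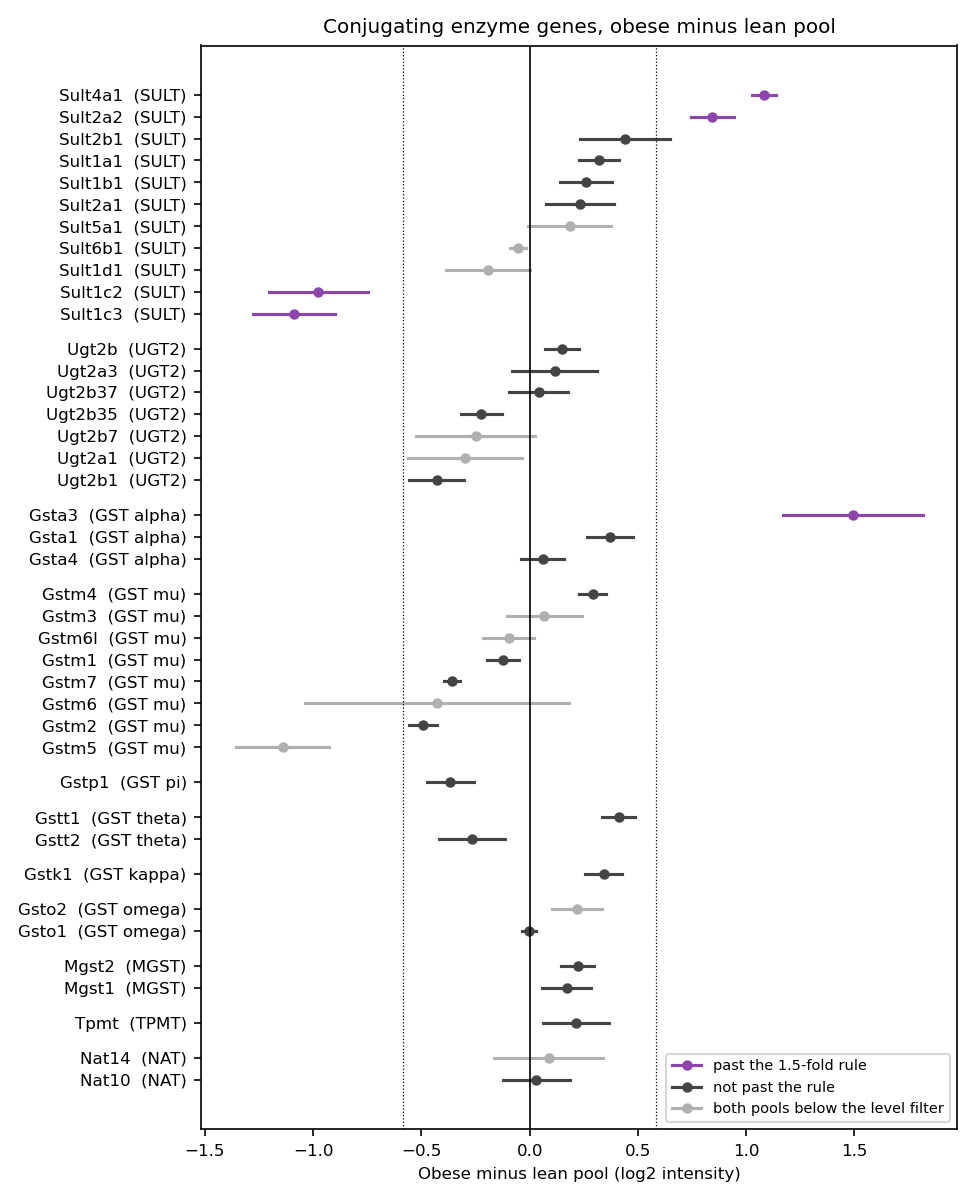
Difference between the obese and the lean pool (log2 intensity, x axis) for each of the 40 genes, by family. Points are differences of pool means, bars run over the 4 pairs of arrays, dotted lines mark a 1.5-fold difference, and the 5 genes past the 1.5-fold rule are in purple, from Gsta3 at 1.49 to Sult1c3 at -1.09.

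Of the 40 genes, Gsta3 had the largest excess in obese rats. The gene encodes the Yc2 subunit of rat alpha-class glutathione transferase, known for detoxifying the epoxide of aflatoxin. Its level was 7.77 and 7.34 on the obese arrays, against 6.17 and 5.95 on the lean arrays, so the arrays of the pools lay well apart. The fold was 2.82 (2.25 to 3.52 over the pairs of arrays). Its chromosomal neighbour Gsta1, which encodes the Yc1 subunit, had 12.33 and 12.20 on the obese arrays, against 11.85 and 11.94 on the lean arrays. The obese arrays were also the higher ones for Gsta1, at a fold of 1.29 (1.20 to 1.39), which did not reach the rule. Gsta4, which conjugates the lipid peroxidation product 4-hydroxynonenal, differed by a fold of 1.04 (0.973 to 1.12) with overlapping arrays, and its second probe set by 1.06 (1.01 to 1.12). Alpha-class genes are similar in sequence, so probes may read more than 1 of them.

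The windows at the starts of Gsta3 and Gsta1 are shown because the genes are neighbours that differed by unequal amounts. Capitals mark every match to 3 motifs on either strand: TGACNNNGC, the core of the antioxidant response element to which Nrf2 binds, TTCNNNGAA, the GAS element to which STAT5 binds, and GTTAAT, a half-site for HNF1 factors, which reads ATTAAC on the other strand. The sequences are those of RefSeq on GRCr8, 5′ to 3′, from 250 bases before to 50 bases after the annotated start. Gsta3 lies at chr9:31154739-31155038 on the plus strand and Gsta1 at chr9:31216483-31216782 on the minus strand.
Gsta3: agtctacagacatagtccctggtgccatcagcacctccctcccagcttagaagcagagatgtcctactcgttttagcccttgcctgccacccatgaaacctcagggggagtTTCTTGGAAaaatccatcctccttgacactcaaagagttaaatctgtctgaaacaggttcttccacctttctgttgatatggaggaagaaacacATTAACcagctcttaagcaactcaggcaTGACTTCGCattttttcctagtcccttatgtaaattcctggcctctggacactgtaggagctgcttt
Gsta1: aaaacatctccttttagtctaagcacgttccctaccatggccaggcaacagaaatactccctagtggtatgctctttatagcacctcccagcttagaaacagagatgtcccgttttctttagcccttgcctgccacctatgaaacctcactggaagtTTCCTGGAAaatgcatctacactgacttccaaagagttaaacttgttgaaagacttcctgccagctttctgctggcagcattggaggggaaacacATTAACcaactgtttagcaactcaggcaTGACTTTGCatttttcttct
Both windows held each motif once and in the same order, GAS element, HNF1 half-site, antioxidant element. The half-site began 28 bases before the antioxidant element in both. The matches began at bases 112, 206 and 234 of the Gsta3 window and at bases 158, 253 and 281 of the Gsta1 window. The half-site and the antioxidant element thus lay before the annotated start in Gsta3 and after it in Gsta1. A second annotated start of Gsta3 had only the half-site. Of 33469 windows in the RefSeq table, 12.1% held the antioxidant core, 8.87% the GAS element and 7.45% the half-site. Of the 40 genes, 34 had a window, and the antioxidant core stood in those of Gsta1, Gsta3, Gstm5, Gstm7, Gstp1 and Tpmt. These 6 genes did not share a direction: Gsta3, Gsta1 and Tpmt had differences of 1.49, 0.37 and 0.22, and Gstm5, Gstm7 and Gstp1 of -1.14, -0.36 and -0.37. A match describes the letters only and is not a shown binding site.

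Sult1c3 and Sult1c2, which lie close together on chromosome 9, were both lower in the obese pool. Sult1c3 sulfonates phenols and activates N-hydroxy arylamines in rat liver. Its level was 10.35 and 10.01 on the obese arrays, against 11.25 and 11.29 on the lean arrays. All lean arrays stood above all obese arrays, and Sult1c3 was 2.13-fold lower in obese than in lean liver (1.87 to 2.43). Sult1c2 had 7.55 and 7.34 on the obese arrays, against 8.30 and 8.54 on the lean arrays. It was 1.97-fold lower in obese than in lean liver (1.68 to 2.31), again with no overlap. Probe sets of the Sult1c genes can share sequence, so these values may not be independent of each other.

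Sult2a2, a hydroxysteroid sulfotransferase, went the other way. It had 9.40 and 9.39 on the obese arrays, against 8.64 and 8.46 on the lean arrays. Both obese arrays were higher, and the fold was 1.80 (1.68 to 1.92). Sult2a1, its chromosomal neighbour and a sulfotransferase of hydroxysteroids and bile acids, had 9.43 and 9.15 on the obese arrays, against 9.05 and 9.08 on the lean arrays. The obese arrays were higher here too, but the fold of 1.17 (1.05 to 1.31) was below the rule. Sult2b1, which sulfonates cholesterol and related sterols, had 5.60 and 5.96 on the obese arrays, against 5.37 and 5.31 on the lean arrays, and a fold of 1.36 (1.18 to 1.57) with a lean level below the level filter. Without the obese original array, Sult2b1 also passed the 1.5-fold rule, which brought the genes counted as higher to 4.

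The windows of Sult2a2 and Sult1c3 are shown as those of a sulfotransferase gene higher and one lower in the obese pool, with the same motifs in capitals. The Sult2a2 window lies at chr1:85104483-85104782 and the Sult1c3 window at chr9:7594207-7594506, both on the minus strand of GRCr8.
Sult2a2: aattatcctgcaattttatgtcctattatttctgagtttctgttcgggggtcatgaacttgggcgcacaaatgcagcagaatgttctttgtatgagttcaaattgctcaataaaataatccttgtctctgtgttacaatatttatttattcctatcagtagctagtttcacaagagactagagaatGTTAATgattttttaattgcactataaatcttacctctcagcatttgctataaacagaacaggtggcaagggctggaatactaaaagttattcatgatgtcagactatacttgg
Sult1c3: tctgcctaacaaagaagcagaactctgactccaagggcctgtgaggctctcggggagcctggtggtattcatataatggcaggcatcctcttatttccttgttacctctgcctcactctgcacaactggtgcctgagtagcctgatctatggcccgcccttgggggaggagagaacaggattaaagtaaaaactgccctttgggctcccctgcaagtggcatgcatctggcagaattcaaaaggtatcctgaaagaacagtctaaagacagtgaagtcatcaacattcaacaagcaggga
The Sult2a2 window held 1 HNF1 half-site, from base 187, and neither of the other motifs. The Sult1c3 window held 0 matches.

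Sult4a1, a brain-enriched member of the family without an established substrate, was dim. It had 5.76 and 5.77 on the obese arrays, against 4.64 and 4.73 on the lean arrays. The pools did not overlap, and the fold was 2.12 (2.04 to 2.20). The lean level did not reach the level filter, and signal above background was not shown there, so the size of this fold is uncertain.

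The other sulfotransferases differed less. Sult1a1, the main phenol sulfotransferase, had 11.65 and 11.59 on the obese arrays, against 11.24 and 11.37 on the lean arrays, a fold of 1.25 (1.17 to 1.33). Sult1b1, which sulfonates thyroid hormones and small phenols, had 11.66 and 11.47 on the obese arrays, against 11.28 and 11.33 on the lean arrays, a fold of 1.20 (1.10 to 1.30). In both genes the obese arrays were the higher ones and the fold stayed below 1.5. Sult1d1, Sult5a1 and Sult6b1 were below the level filter in both pools, with differences of -0.19, 0.18 and -0.06. Of all 11 sulfotransferases, 2 (18.2%) were counted as higher and 2 (18.2%) as lower, against 2.19% and 2.43% of all genes. Their median difference was 0.23, or 0.09 without the obese original array.

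**Figure D2:**
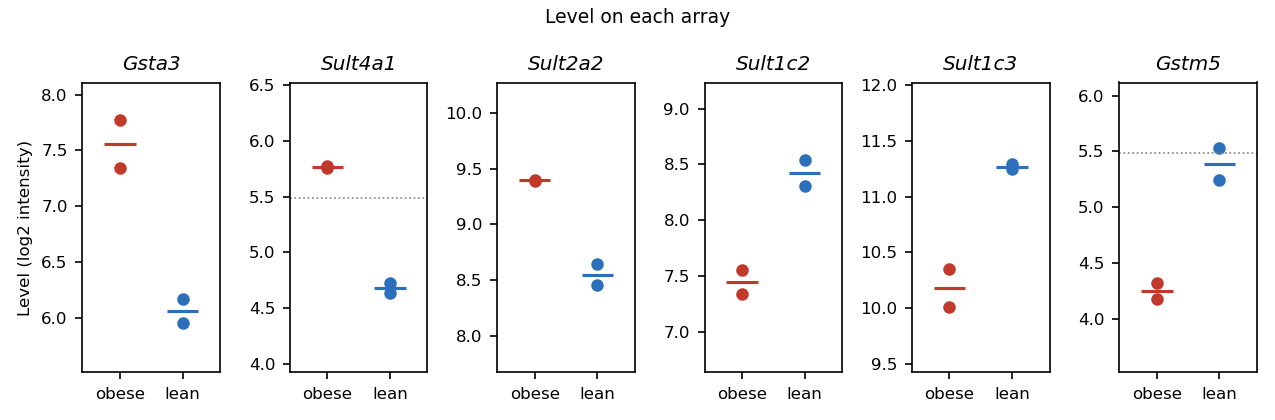
Level on each array (points, log2 intensity, y axis) and pool mean (line) for the 5 genes past the 1.5-fold rule and Gstm5, obese left and lean right; every panel spans the same number of log2 units and dotted lines mark the level filter of 5.48. In each panel the obese and lean points do not overlap, and Gstm5 has both pool means below the filter.

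No glucuronosyltransferase reached the 1.5-fold rule. The 7 UGT2 genes had a median difference of -0.22 and ran from -0.43 for Ugt2b1 to 0.15 for Ugt2b. When 16 was added to every linear intensity before logs were taken, the median was -0.07. Ugt2b1, which glucuronidates morphine and other drugs in rats, averaged 9.92 on the obese arrays (9.83 on the technical replicate), against 10.38 and 10.31 on the lean arrays. It was the largest difference of the family, 1.35-fold lower in the pool of obese rats (1.23 to 1.47) without overlap. Ugt2b35 was 1.17-fold lower (1.09 to 1.25), also without overlap. Ugt2b, known as Ugt2b2 and active on androsterone, had 11.74 and 11.63 on the obese arrays, against 11.51 and 11.56 on the lean arrays, 1.11-fold higher in the pool of obese rats (1.05 to 1.17). Ugt2b37 and Ugt2a3 had differences of 0.04 and 0.12 with overlapping arrays, and Ugt2a1 and Ugt2b7 were dim, at -0.30 and -0.25. UGT2 genes resemble each other closely, so their probe sets may also bind transcripts of neighbouring genes.

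Mu-class glutathione transferases leaned lower and none of the 8 was counted. Their median difference was -0.24, with 6 below 0 and 2 above, and was -0.10 without the obese original array and -0.15 when 16 was added. Gstm2 had 10.70 and 10.66 on the obese arrays, against 11.13 and 11.21 on the lean arrays. It was 1.41-fold lower in obese than in lean liver (1.35 to 1.47), with no overlap. Gstm7 had 9.36 and 9.29 on the obese arrays, against 9.68 and 9.69 on the lean arrays, 1.28-fold lower (1.25 to 1.31). Gstm1, which encodes the main mu-class subunit of rat liver, had 12.37 and 12.31 on the obese arrays, against 12.42 and 12.51 on the lean arrays, 1.09-fold lower (1.03 to 1.15). Gstm4 was the exception among the brighter genes, with 8.83 and 8.71 on the obese arrays, against 8.48 and 8.48 on the lean arrays, and a fold of 1.22 (1.17 to 1.28).

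Gstm5 had the most negative difference of the 40 genes, -1.14, and was not counted because both pools were dim. Its level was 4.32 and 4.17 on the obese arrays, against 5.53 and 5.24 on the lean arrays. It entered the count of lower genes without a level filter, without the lean technical replicate array and on the original arrays alone. Gstm6, at -0.43, had overlapping arrays and was the member with the largest disagreement between arrays of a pool, 0.92 between the obese arrays. Gstm3 and Gstm6l were dim, with differences of 0.07 and -0.10. The median of the mu class and the median of the muscle markers, -5.50, were both below 0. Human muscle is known to express a mu-class gene, GSTM2, and whether muscle RNA in the lean pool contributed to the mu-class values was not tested.

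The mu-class and UGT2 genes can also be read in chromosomal order, and both groups held differences of either sign. The 8 mu-class genes lie together on chromosome 2 in GRCr8, with Gstm5 (-1.14) at the one end and Gstm4 (0.29) at the other. On chromosome 14 the run from Sult1d1 to Ugt2b1 held 9 of the 40 genes, and Sult1b1 (0.26), Ugt2a3 (0.12), Ugt2b (0.15) and Ugt2b37 (0.04) were above 0 while the other 5, among them Ugt2b35 (-0.22) and Ugt2b1 (-0.43), were below.

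**Figure D3:**
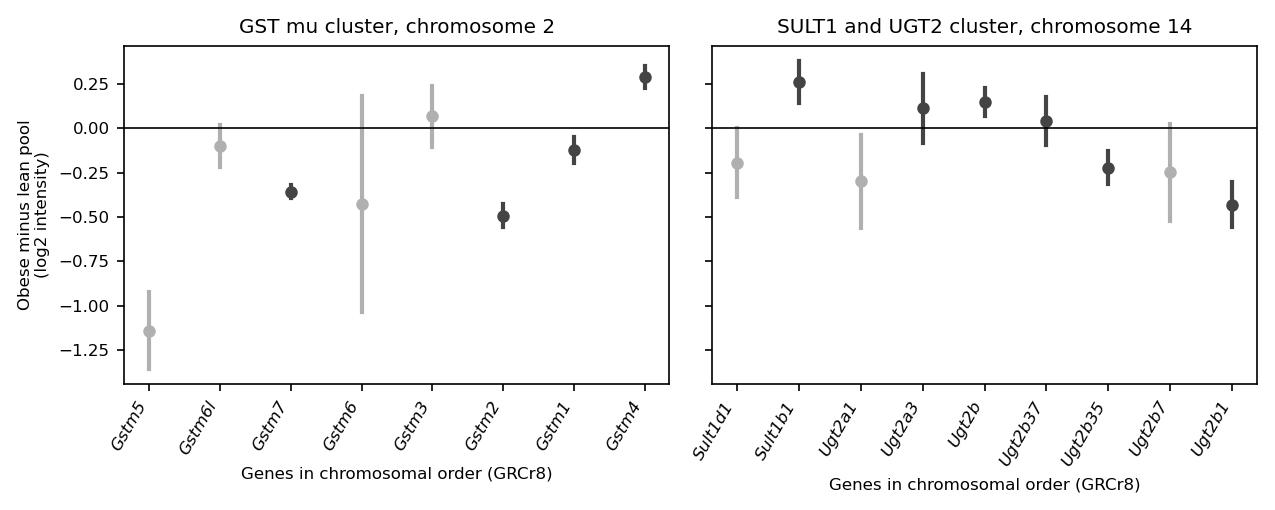
Difference between the obese and the lean pool (log2 intensity, y axis) for genes in chromosomal order, with bars over the 4 pairs of arrays; grey genes were below the level filter in both pools. In the mu-class run Gstm7 and Gstm2 lie below 0 and Gstm4 above it, and in the SULT1 and UGT2 run Sult1b1 and Ugt2b lie above 0 and Ugt2b35 and Ugt2b1 below it.

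The remaining glutathione transferases showed small differences in both directions. Gstt1, a theta-class enzyme for small halogenated compounds, had 8.71 and 8.66 on the obese arrays, against 8.33 and 8.22 on the lean arrays, a fold of 1.33 (1.26 to 1.40). Its near neighbour Gstt2 had 9.46 and 9.32 on the obese arrays, against 9.58 and 9.74 on the lean arrays, and was 1.20-fold lower in obese than in lean liver (1.08 to 1.34). The theta genes thus lay on opposite sides of 0, each without overlap. Gstk1, the mitochondrial and peroxisomal kappa enzyme, was 1.27-fold higher in obese than in lean liver (1.20 to 1.34). Gsto1, an omega-class thioltransferase, had a fold of 0.998 (0.976 to 1.02), the smallest difference of the 40, and Gsto2 was dim, at 0.22.

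Gstp1, the pi-class enzyme that is scarce in normal rat hepatocytes and marks their preneoplastic foci, was slightly lower in the obese pool. It had 6.66 and 6.57 on the obese arrays, against 6.91 and 7.04 on the lean arrays. It was 1.29-fold lower in obese than in lean liver (1.19 to 1.39), without overlap. Bile duct cells also express it, and the 6 bile duct markers had a summed intensity of 193 to 197 on the obese arrays and 196 to 197 on the lean arrays. All 6 were below the level filter, so these sums say nothing of bile duct content.

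The membrane-bound transferases and Tpmt were slightly higher in the obese pool. Mgst1, the microsomal glutathione transferase, had 12.68 and 12.57 on the obese arrays, against 12.40 and 12.51 on the lean arrays, a fold of 1.13 (1.04 to 1.22). Mgst2, which can also make leukotriene C4, was 1.17-fold higher (1.11 to 1.23), and Tpmt, which methylates thiopurine drugs, 1.16-fold (1.04 to 1.29). None of these reached 1.5-fold. Nat10 and Nat14 had overlapping arrays, with differences of 0.03 and 0.09.

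Among genes that supply the donors or process the conjugates, Ethe1, Gss and Nat8 were counted. For these and the following lists, the shares over all genes were 2.19% counted as higher and 2.43% as lower. Genes too dim to be counted are part of these shares, as 52.1% of all genes reached the level filter. Of 7 genes for UDP-glucuronate supply and glucuronide handling, 0 were counted, and Ugdh, which makes UDP-glucuronate, had a fold of 1.06 (0.982 to 1.14). Of 14 genes for sulfate donor supply and sulfatases, Ethe1, a mitochondrial sulfide-oxidising dioxygenase, was 1.76-fold higher in obese than in lean liver (1.65 to 1.89), and 0 were lower. Papss2, a synthase of the sulfonate donor PAPS, was 1.31-fold lower (1.17 to 1.45), below the rule. Of 23 genes of glutathione synthesis and mercapturate formation, 1 was higher and 1 lower. Gss, which completes glutathione synthesis, was 1.53-fold higher in obese than in lean liver (1.40 to 1.67), and Gclc, the catalytic subunit of its rate-limiting enzyme, 1.45-fold (1.36 to 1.54), just under the rule. Nat8, which acetylates cysteine conjugates to mercapturates, was 2.10-fold lower (1.82 to 2.42), with a dim obese level that makes the size of this fold uncertain.

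Outside the 40 genes, a list of 13 measured genes covered enzymes that transfer methyl, glycine, taurine or acyl groups. It also held Mat1a and Ahcy, which serve methyl transfer and are not conjugating enzymes themselves. Of the 13 genes, 3 (23.1%) were lower and 0 higher in the obese pool, against 2.43% and 2.19% of all genes. The median was -0.07. Inmt, an N-methyltransferase of indoleamines, was 8.10-fold lower in obese than in lean liver (7.17 to 9.15), with an obese level of only 4.45, which makes the size of this fold uncertain. Glyatl2 and Glyat, which are acyltransferases that form glycine conjugates, were 1.84-fold (1.55 to 2.17) and 1.63-fold (1.40 to 1.89) lower.

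Among 11 genes for exporters of conjugates and drugs or for their partner proteins (Rdx and Pdzk1), only Abcb1b, a P-glycoprotein, was counted. It was 3.54-fold higher in obese than in lean liver (2.97 to 4.22), from a lean level of 5.45, just below the level filter, and the median of the list was -0.05. Among 19 xenobiotic sensors and partners, Esr1, the estrogen receptor, was 2.14-fold higher (1.86 to 2.47), and Nr1i3, the receptor CAR, and Ahr, the aryl hydrocarbon receptor, were 2.07-fold (1.91 to 2.24) and 1.51-fold (1.30 to 1.75) lower. Nr1i2, the receptor PXR, had a fold of 1.10 (1.04 to 1.15) and Nfe2l2, which encodes Nrf2, one of 1.32 (1.15 to 1.51).

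Targets of these sensors outside conjugation were looked up beside them. Of 22 Nrf2 targets, 3 (13.6%) were higher and 0 lower, against 2.19% and 2.43% of all genes. The median was 0.20, or 0.10 when 16 was added, with 16 differences above 0 and 6 below. The 3 counted were Me1, which makes NADPH, the haem-degrading Hmox1 and the quinone reductase Nqo1. Their differences were 1.43, 1.26 and 1.00, beside 1.49 for Gsta3. The targets Gclm, Akr7a3 and Txnrd1 were not counted, at -0.01, -0.05 and 0.22. Of 17 targets of CAR and PXR, 2 (11.8%) were higher and 1 (5.88%) lower (median 0.22, or 0.06 without the obese original array). Of 6 targets of the aryl hydrocarbon receptor only Nqo1, also on the Nrf2 list, was counted, and the median was 0.06. Cyp1a1 was dim in both pools and higher in the obese pool, at 0.80, and the bright Cyp1a2 was lower, at -0.35. Besides the targets named, the difference of the cytochrome Cyp2b2 was 1.86, of the retinal dehydrogenase Aldh1a1 0.86, and of the organic anion carrier Slco1a4 -1.28. The lean level of Cyp2b2 was below the level filter.

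Sex-dependent genes outside conjugation are given beside the sulfotransferases because some of those are sex-dependent in rats. Of 11 measured male-biased genes, 6 (54.5%) were counted as lower and 0 as higher in the obese pool, against 2.43% and 2.19% of all genes. Their median was -0.97. Largest among the 6 were the steroid-hydroxylating cytochromes Cyp3a18 and Cyp3a2, at -2.92 and -2.16, beside -1.09 for Sult1c3. Cyp2c13 (-0.17) was not counted, and Cyp2c22 (0.25) and Cyp8b1 (0.40) were higher in the obese pool without overlap, below the rule. Of 10 genes listed as female-biased, 4 were higher and 2 lower (median 0.35). The higher ones were Akr1b7 (3.68), Cyp17a1 (2.10), Prlr (1.82) and Cyp2a1 (0.60), beside 0.84 for Sult2a2 and 0.23 for Sult2a1. The lean levels of Akr1b7 and Prlr were below the level filter. Cyp2c12, bright in both pools, differed by 0.23 and was not counted. The lower ones were Fmo1 (-1.50) and Hao2 (-1.10). The female bias of Akr1b7, Cyp17a1 and Fmo1 is less well established than that of the others and may not hold in rat liver.

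**Figure D4:**
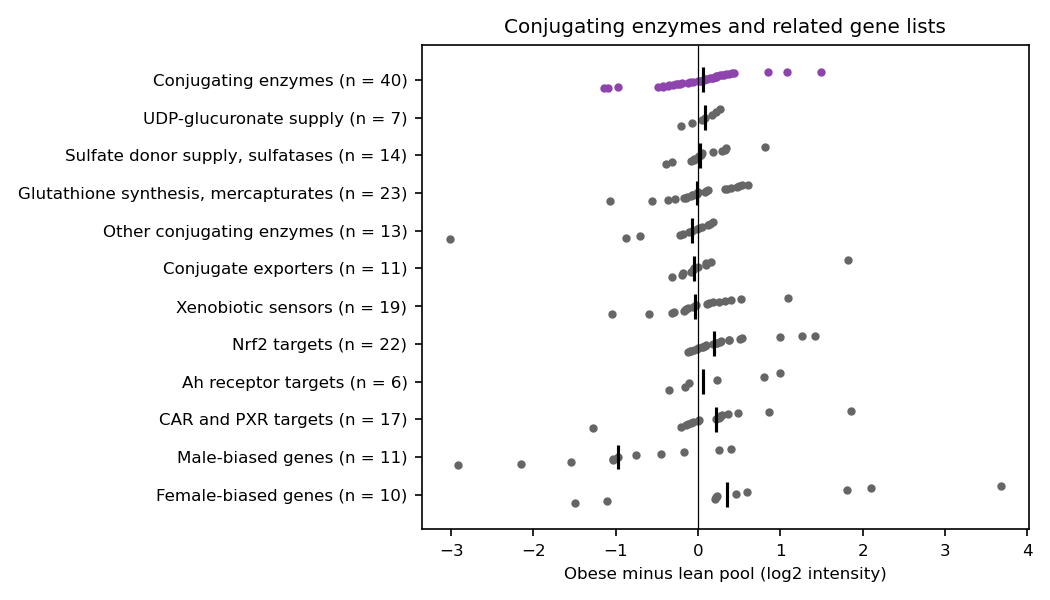
Difference between the obese and the lean pool (log2 intensity, x axis) of each gene (points) and the median (bar) for the 40 conjugation genes and 11 related lists. The medians lie between -0.07 and 0.22 except for the male-biased genes, at -0.97, and the female-biased genes, at 0.35.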

How the data were processed

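The authors deposited 1 linear intensity for every array and probe set, made with RMA, per the submitters' processing notes; the software version and the genome build are not given in the sources used here. Per the labels' protocols, 100 ng of each pool was amplified. Values were turned to log2 here with no further normalisation. The median log2 value was 4.69 and 4.79 on the obese arrays and 4.77 and 4.75 on the lean arrays. RMA draws in very dim values, and no detection calls were used, so a level below 5.48 is not shown to be above background.

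Of 29214 probe sets, 15310 carried 1 symbol, 323 several and 13581 were not listed. Probe sets with several symbols named no gene. The gene identifiers of all 40 genes were found in the GRCr8 gene table, which gave gene order. The windows at gene starts came from RefSeq on the same build. Gsta4 had 2 probe sets, and the one with the highest mean was used.

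No test was run, since each phenotype is 1 pool; the number of arrays limits precision. All genes past the 1.5-fold rule are named, with the others by level and difference. From related lists, at most 5 genes past the rule, a few fixed ones and some that were not counted are named. The members, lists and rules were chosen with earlier results of these data known. The 1.5-fold rule was run on simulated arrays whose spread was taken from the lean arrays alone. The SD of the difference between the arrays of a pool was 0.20 for lean and 0.27 for obese. The simulation thus had less spread than the obese arrays, and it held no variation between animals. Python 3.11.15, pandas 2.3.3 and limma 3.58.1 (cyclic loess) were used. The alternatives were cyclic loess, median centring, an offset of 16, the mean of probe sets, other level and gap filters, subsets of arrays and of members.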

Additional observations from a re-analysis of the deposited data

Results flagged for a closer look

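A probe set outside the 40 genes stood out because it gave more signal in the obese pool and belongs to no single gene. It is listed for both Sult2a2 and Sult2a6, hydroxysteroid sulfotransferases of the same group, and cannot be assigned to either. It had 9.11 and 9.01 on the obese arrays, against 6.68 and 6.81 on the lean arrays. The obese arrays lay far above the lean ones, at a fold of 4.98 (4.61 to 5.38 over the pairs of arrays). The probe set of Sult2a2 alone had a fold of 1.80. How much of the larger value comes from Sult2a6 was not tested.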

How the results depend on the processing

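The 3 higher and 2 lower genes of the 1.5-fold rule were the same 5 under cyclic loess, median centring, the offset of 16, the mean of probe sets, no gap and each array left out, apart from additions of Sult2b1 or Gstm5. With both pools past the level filter, 4 of the 5 remained, without Sult4a1. The count of 2-fold lower genes was 2 with cyclic loess, without a level filter and on the technical replicate arrays alone, and 0 to 2 when 1 array was left out. The count of 2-fold higher genes was 1 when 16 was added and with both pools past the level filter. Over all genes, 151 were 1.5-fold lower with both pools past the level filter, 616 were higher on the original arrays alone, and 259 to 553 were higher when 1 array was left out, the 553 when that was the second obese array. For the 40 genes the median ran from 0.00 with cyclic loess to 0.12 without the obese technical replicate array, and was 0.07 with Sult1e1 added, an alternative chosen after seeing the data. The causes were not tested. Among medians of families and related lists, 20 of 91 and 49 of 260 moved by over 1 SD over the pairs of arrays. The theta-class median was -0.02 with cyclic loess, in place of 0.07. The medians of the exporter, glutathione, sulfate donor and sensor lists took either sign. None of the 5 counted genes changed sign, and of the other genes Gsta4, Gstm3, Gstm6, Gsto1, Nat10, Nat14, Sult1d1, Ugt2a3 and Ugt2b37 did. No paired analysis was possible because each phenotype is 1 pool and the labels number no pairs.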

Other observations

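In all, 9 probe sets with a symbol of these families list more than 1 entry. Besides the one for Sult2a2 and Sult2a6, 2 that list Sult1c2a and Sult1c2 passed the 1.5-fold rule, at 1.96-fold (1.72 to 2.23) and 1.87-fold (1.64 to 2.14) lower in the obese pool, close to the 1.97-fold of Sult1c2. One lists the symbol Sult1e1, the estrogen sulfotransferase, under 2 gene identifiers. It had 12.44 and 12.34 on the obese arrays, against 12.07 and 12.17 on the lean arrays, a fold of 1.20 (1.12 to 1.29). One lists 8 genes of the Ugt1a locus, which share their last exons, and had 9.13 and 8.91 on the obese arrays, against 9.17 and 9.20 on the lean arrays, 1.12-fold lower in the pool of obese rats (1.03 to 1.22). One lists the arylamine acetyltransferases Nat2 and Nat1 and had 6.57 and 6.17 on the obese arrays, against 5.79 and 5.87 on the lean arrays, a fold of 1.45 (1.23 to 1.71), just under the rule. The 2 that list Gsta5 and Gsta2 had differences of 0.00 and 0.03, and that for Ugt2b15 and Ugt2b37 had -0.02.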
